A study of Mus musculus with 278 samples.

Results

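The oxidative phosphorylation genes were taken by symbol. They were the genes whose symbol starts with 1 of 13 prefixes (Ndufa, Ndufb, Ndufc, Ndufs, Ndufv, Uqcr, Sdh, Atp5, Cox4i, Cox5, Cox6, Cox7 and Cox8), together with the protein-coding genes of the mitochondrial chromosome. This gave 117 of the 27179 genes in the count tables, 104 of them nuclear and 13 mitochondrial. The nuclear set held 83 subunits of the 5 respiratory complexes, 13 assembly factors, 3 related copies and 5 pseudogenes, because the prefixes do not separate these kinds.

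The cells were epithelial cells of FVB/NJ mouse mammary glands, each captured on a microfluidic chip and made into its own poly(A)-primed library. The adult basal and adult luminal groups were sorted from adult glands, and the pregnancy group was total epithelium of mid-pregnant glands, which was not divided into basal and luminal cells before capture. The study states that several adult animals went into each sort. By its figure legends the pregnancy cells came from fewer mice than each adult group, though from more than 1. The labels name no animal for any cell, so each group is 1 sample here, no comparison between groups was tested, and every interval given covers counting error only. Of 278 libraries, 231 held at least 50000 reads and were used, namely 88 from the adult basal group of 112, 41 from the adult luminal group of 43 and 102 from the pregnancy group of 123.

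Oxidative phosphorylation passes electrons from NADH and succinate through complexes I to IV of the inner mitochondrial membrane to oxygen, and complex V, the ATP synthase, makes ATP from the proton gradient that results. Most subunits are encoded in the nucleus, made in the cytosol and imported. A few core subunits of complexes I, III, IV and V are encoded on the mitochondrial chromosome, transcribed from both of its strands as long precursors, and translated inside the organelle. Complex II, which also works in the citric acid cycle, is wholly nuclear. In the mammary gland, ductal luminal cells and contractile basal cells line the ducts, and in pregnancy milk-producing alveolar cells expand, so that milk protein transcripts take up a growing part of the RNA.

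Reads per used library ranged from 55301 to 1402390 among adult basal cells (median 395183). The adult luminal range was 224911 to 1104862 (median 700782), and the pregnancy range was 54199 to 911874 (median 236910). Of 10 basal and 10 luminal marker genes, the median adult basal cell showed 9 and 3, the median adult luminal cell 0 and 9, and the median pregnancy cell 8 and 7. With each cell thinned to 50000 reads, the median number of nuclear members seen was 49, 68 and 62.5 per cell in adult basal, adult luminal and pregnancy cells, while the median total of genes seen was 2304, 3547 and 3188.5. A few cells stood apart. Adult basal cell 75, named by the number in its label, had 81.4% of its reads on the mitochondrial set and 0.00125% on the nuclear set, and values are given with and without such cells where they move a result. Markers of another cell type (immune, endothelial, fibroblast or erythroid, 3 or more of them) were present in 2 adult basal, 6 adult luminal and 23 pregnancy cells, and without these cells the nuclear set took 1.34%, 1.80% and 1.05% of reads.

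The nuclear set took the largest share of reads in adult luminal cells and the smallest in the pregnancy group. Summed over cells, nuclear members held 1.33% of all adult basal reads (95% exact binomial interval 1.326 to 1.333). They held 1.75% of adult luminal reads (1.746 to 1.756) and 1.07% of pregnancy reads (1.070 to 1.078). By cell, the lowest, median and highest shares were 0.00125%, 1.28% and 2.49% in adult basal cells. They were 0.523%, 1.73% and 2.80% in adult luminal cells. They were 0.0505%, 1.10% and 2.32% in pregnancy cells. The ranges overlapped across the 3 groups, so the order of the medians is not an order of single cells.

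The mitochondrial set had another order when all cells of a group were summed, with the largest share in pregnancy, but this order did not hold in every class of pregnancy cell. It held 5.20% of all reads in adult basal, 6.65% in adult luminal and 7.93% in pregnancy cells when summed. Its lowest, median and highest shares by cell were 0.881%, 4.66% and 81.4% among adult basal cells. The adult luminal values were 1.39%, 5.61% and 31.3%, and the pregnancy values 1.52%, 5.99% and 68.0%. The median cell had 3.40 mitochondrial reads for each nuclear member read in adult basal cells, 3.36 in adult luminal cells and 5.85 in pregnancy cells. The 2 sets therefore did not keep a fixed ratio across groups. Across cells within a group, Spearman's correlation of the 2 shares was 0.15 (88 adult basal cells), −0.19 (41 adult luminal cells) and −0.30 (102 pregnancy cells). The shares are parts of 1 library total, which by itself ties them together, so these correlations are descriptions only. The mitochondrial share and the number of genes seen in a cell had a Spearman correlation of −0.13, −0.38 and −0.44 in the same order. With the reads of the library, that of the mitochondrial share was −0.14, −0.19 and −0.32. The part of depth in the group shares was not tested.

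**Figure D1:**
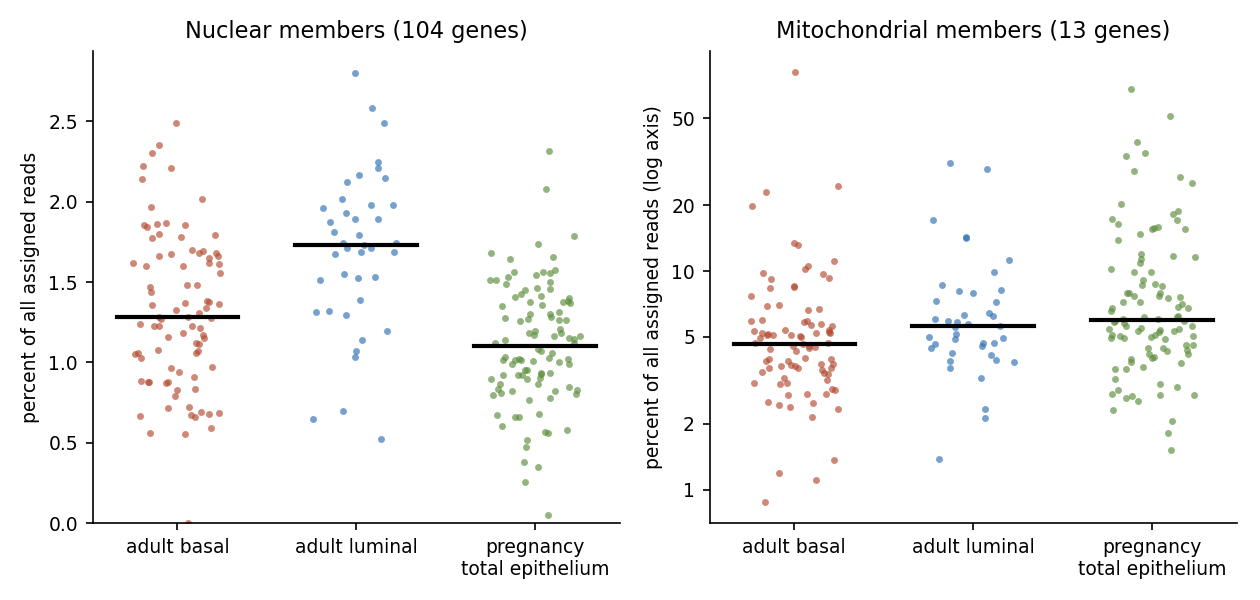
Share of each cell's reads on the nuclear and on the mitochondrial set, by group (percent, linear axis for the nuclear and log axis for the mitochondrial set), where each point is 1 cell of at least 50000 reads and the bar is the group median. Nuclear medians were 1.28%, 1.73% and 1.10% in adult basal, adult luminal and pregnancy cells, and mitochondrial medians 4.66%, 5.61% and 5.99%.

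The pregnancy cells were divided by the number in their title into 2 spans, up to 55 and above it. This division was made after earlier results of these data were known, and the labels do not say what the numbers mean. The 47 cells with numbers up to 55 had 1.27% of reads on the nuclear set and 6.20% on the mitochondrial set, and the 55 cells with higher numbers had 0.953% and 8.98%. The mitochondrial share of the lower span was thus below the 6.65% of adult luminal cells, and that of the higher span above it. Mitochondrial reads per nuclear member read had medians of 4.53 and 6.55 in the 2 spans, both above the adult medians. Milk genes and mitochondrial genes both take reads from the rest in pregnancy. As a percent of the reads outside 8 milk genes and the mitochondrial chromosome, the nuclear set had a median of 1.40% in adult basal, 1.90% in adult luminal and 1.55% in pregnancy cells, and of 1.60% and 1.54% in the 2 spans. On that base the pregnancy median lay between the 2 adult medians rather than below both.

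By complex, the nuclear share was larger in adult luminal than in adult basal cells for each of the 5. Complex I, the NADH dehydrogenase, held 0.430% of reads in adult basal, 0.578% in adult luminal and 0.316% in pregnancy cells. Complex V held 0.389%, 0.519% and 0.330%. Complex IV, cytochrome c oxidase, held 0.293%, 0.366% and 0.264%. Complex III held 0.124%, 0.163% and 0.0929%, and complex II, succinate dehydrogenase, held 0.0332%, 0.0578% and 0.0329%. The assembly factors, which help to build the complexes but are not part of them, differed little between the adult groups, at 0.0459% and 0.0477%, and held 0.0278% in pregnancy. Of the mitochondrial genes, those of complex IV differed most between the adult groups, at 1.47% and 2.58%, while those of complex I held 2.01% and 1.83%.

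To compare genes one by one, the reads of each gene were summed over the cells of a group and given as CPM, the count of reads of a gene scaled to a common library size of 1e+06 reads. A gene was compared where its mean over the 3 groups was at least 10 CPM, which 84 of the 104 nuclear members, all 13 mitochondrial members and 8422 genes in all reached. Of the 84, 15 were at least 2-fold lower and 2 at least 2-fold higher in adult basal than in adult luminal cells. Over all 8422 genes, 28.6% were lower and 18.6% higher by that much, so the members' count of lower genes was below the background. Small differences in 1 direction were more usual: 66 of the 84 had a log2 ratio below 0, with a median of −0.42. Of all genes with a ratio, 4812 of 8412 were below 0, and their median was −0.22. TMM scaling, an edgeR method that discounts genes with extreme ratios, moved these 2 medians to −0.15 and 0.05. It left 9 members at least 2-fold lower and 6 higher, where 23.4% of all genes were lower and 23.4% higher. The members' median lay 0.20 below that of all genes, a gap that scaling cannot change, and 0.09 below it when genes from a mean of 1 CPM were compared.

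The members furthest below their luminal level belonged to complexes I, II and V. Atp5d (Entrez 66043), which encodes the delta subunit of the F1 part of the ATP synthase, was at 26.4 CPM (95% interval 24.9 to 28.1) in adult basal and 110 CPM (106 to 114) in adult luminal cells, a log2 ratio of −2.06, and at 36.0 CPM in pregnancy. Its median by cell was 0 CPM in adult basal cells (highest 1033), 85.9 in adult luminal cells (highest 459) and 16.6 in pregnancy cells (highest 291). At 50000 reads it was seen in 25 of 88, 32 of 41 and 52 of 102 cells, so the luminal cells differed from the others in how many showed it, although the ranges overlapped. Ndufs3 (68349), a core subunit of complex I, was at 13.7, 50.0 and 13.9 CPM, with a log2 ratio of −1.87 between the adult groups. Its medians by cell were 0, 45.5 and 3.73 CPM, and its highest cells 253, 245 and 313 CPM. Ndufa8 (68375), an accessory subunit of complex I, was at 16.0, 49.3 and 12.7 CPM and was seen in 20 of 88, 25 of 41 and 36 of 102 cells. Sdhd (66925), a membrane anchor of complex II, was at 7.06, 19.6 and 7.73 CPM.

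Sdha (66945), the flavoprotein of complex II that oxidises succinate, differed from these in pregnancy. It was at 54.1 CPM in adult basal, 181 CPM in adult luminal and 119 CPM in pregnancy cells, and it was seen in 18 of 88 (20.5%), 23 of 41 (56.1%) and 61 of 102 (59.8%) cells at 50000 reads. Its lowest cell was at 0 CPM in each group, its medians were 0, 48.5 and 20.7 CPM, and its highest cells 1975, 1501 and 1207 CPM. Adult basal cell 4 held 47.0% of the basal Sdha reads. With the cell of most Sdha reads left out of each group, the log2 ratio of adult basal over adult luminal went from −1.75 to −2.35 and that of pregnancy over adult basal from 1.14 to 1.90. Sdhaf4 (68002), an assembly factor that acts on the Sdha protein, was at 29.9, 94.0 and 24.9 CPM, so its pregnancy level was near the basal one where that of Sdha was not.

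**Figure D2:**
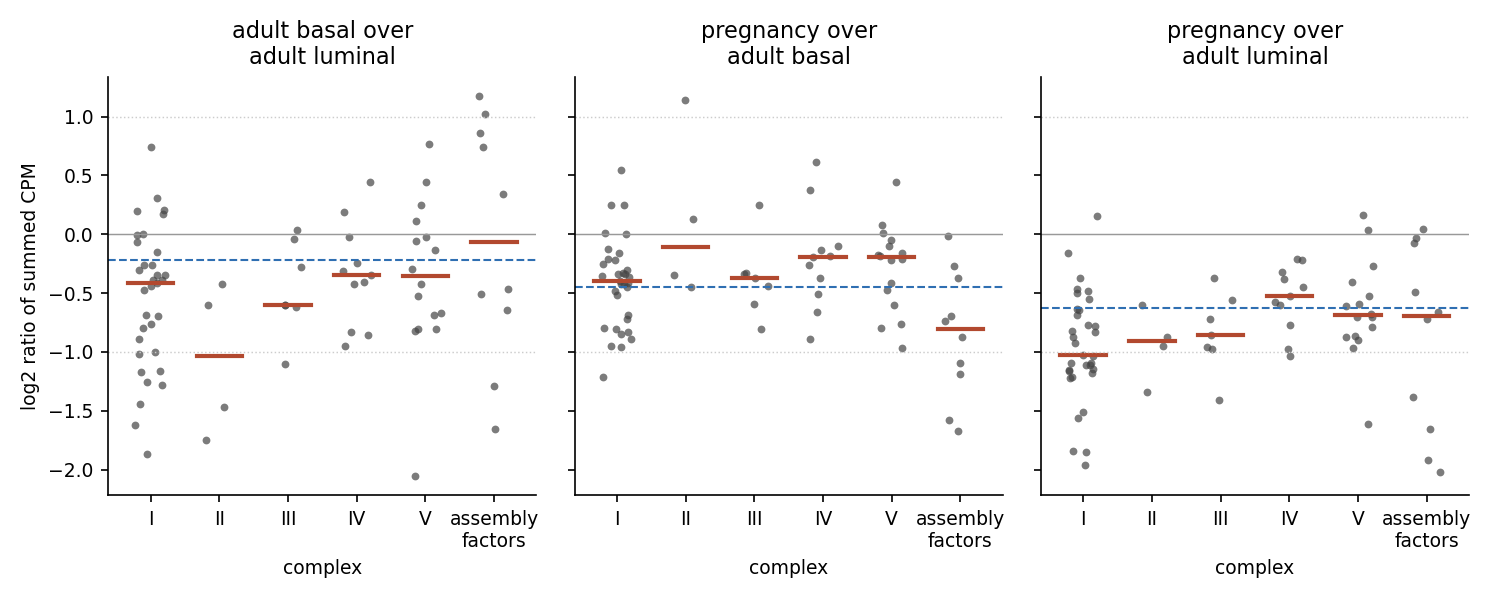
Log2 ratio of summed CPM for each compared member, by complex, in the 3 comparisons of groups, where each point is 1 gene, the bar the median of the complex, and the dashed line the median over all 8422 genes. In adult basal over adult luminal cells the complex II members had the lowest median (−1.04) and the assembly factors the highest (−0.06).

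Complex by complex, the median log2 ratio of adult basal over adult luminal cells was −0.41 for 33 complex I subunits (9 at least 2-fold lower), −1.04 for 4 of complex II (2), −0.60 for 7 of complex III (1), −0.35 for 11 of complex IV (0) and −0.36 for 16 of complex V (1). Beside the 28.6% of all genes that were lower by as much, the count for complex I was near the background, those for complexes III to V were below it, and complex II has too few members to read. The 7 nuclear subunits of the catalytic core of complex I, a grouping set with earlier results known, were all below 0 with a median of −1.26, while the 26 accessory subunits had a median of −0.35. Of the core, Ndufv1 (17995), which binds NADH, was at 64.9, 177 and 49.2 CPM in adult basal, adult luminal and pregnancy cells. Ndufs7 (75406), which carries the last iron-sulfur cluster before ubiquinone, was at 62.0, 148 and 50.3 CPM, and its medians by cell were 0, 84.9 and 18.6 CPM. Both were seen in more of the luminal cells: Ndufv1 in 24 of 88, 26 of 41 and 42 of 102, and Ndufs7 in 25 of 88, 27 of 41 and 57 of 102 cells.

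The other 18 compared members were above their luminal level in adult basal cells, 5 of them assembly factors and 13 subunits, and 4 of the 6 with the highest ratios were assembly factors. Ndufaf4 (68493), a complex I assembly factor, was at 70.3, 31.1 and 22.1 CPM in adult basal, adult luminal and pregnancy cells, a log2 ratio of 1.18 between the adult groups, but it was seen in 24 of 88, 10 of 41 and 24 of 102 cells, and adult basal cell 22 held 24.0% of the basal reads. Ndufaf1 (69702) was at 22.4, 11.0 and 10.5 CPM. Of its 894 basal reads, 893 lay in adult basal cell 25, and with the cell of most reads left out of each group 1 basal read and 145 luminal reads were left, so that the log2 ratio went from 1.02 to −7.71 with a wide counting interval of −13.02 to −5.21. No direction is given for this gene. Sdhaf2 (66072) was at 46.1, 25.4 and 15.4 CPM. Ndufa11 (69875), an accessory subunit of complex I, was spread over more cells: it was at 351, 209 and 152 CPM with medians by cell of 275, 179 and 131 CPM, and was seen in 76 of 88, 35 of 41 and 91 of 102 cells. Atp5md (66477), a small membrane subunit of the ATP synthase, was at 26.0, 15.2 and 17.1 CPM with medians of 15.0, 12.2 and 14.5 CPM.

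The most abundant subunits for their length, 2 in each complex, differed by less than 2-fold between the adult groups. On the scale of CPM per kilobase of gene length, Cox6a1 (12861) was at 1337, 1356 and 1170 and Cox4i1 (12857) at 794, 1533 and 1028 in complex IV, Atp5g3 (228033), which encodes the ring that turns in the ATP synthase, at 1017, 1059 and 881 in complex V, Ndufa1 (54405) at 476, 478 and 370 in complex I, Uqcrh (66576) at 431, 444 and 343 in complex III, and Sdhb (67680) at 178, 239 and 130 in complex II. The others were Atp5e, at 881, 648 and 451, Ndufb9, at 402, 544 and 348, Uqcr10, at 370, 568 and 293, and Sdhc, at 67.0, 102 and 52.7. Cox6a1, Atp5g3, Ndufa1 and Uqcrh were near equal in the adult groups, Atp5e was higher in adult basal cells, and the other 5 were lower there. Cox4i1 differed most, with medians by cell of 477, 979 and 678 CPM. It was seen in all 41 adult luminal cells and 101 of 102 pregnancy cells, and in 78 of 88 adult basal cells. The quartiles of its level in adult luminal cells, 855 and 1172 CPM, lay above the upper quartile in adult basal cells, 778 CPM. Cox6a1, of the same complex, had medians of 554, 706 and 540 CPM, and its quartiles overlapped between the adult groups. The ratios also varied with the gene length given in the count tables. Among the 36 members under 600 bases the median log2 ratio of adult basal over adult luminal was −0.25 against −0.14 for all genes of that length. From 600 to 1000 bases it was −0.60 against −0.44, from 1000 to 2000 bases −0.69 against −0.47, and in the 7 members of 2000 bases or more 0.34 against −0.12.

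**Figure D3:**
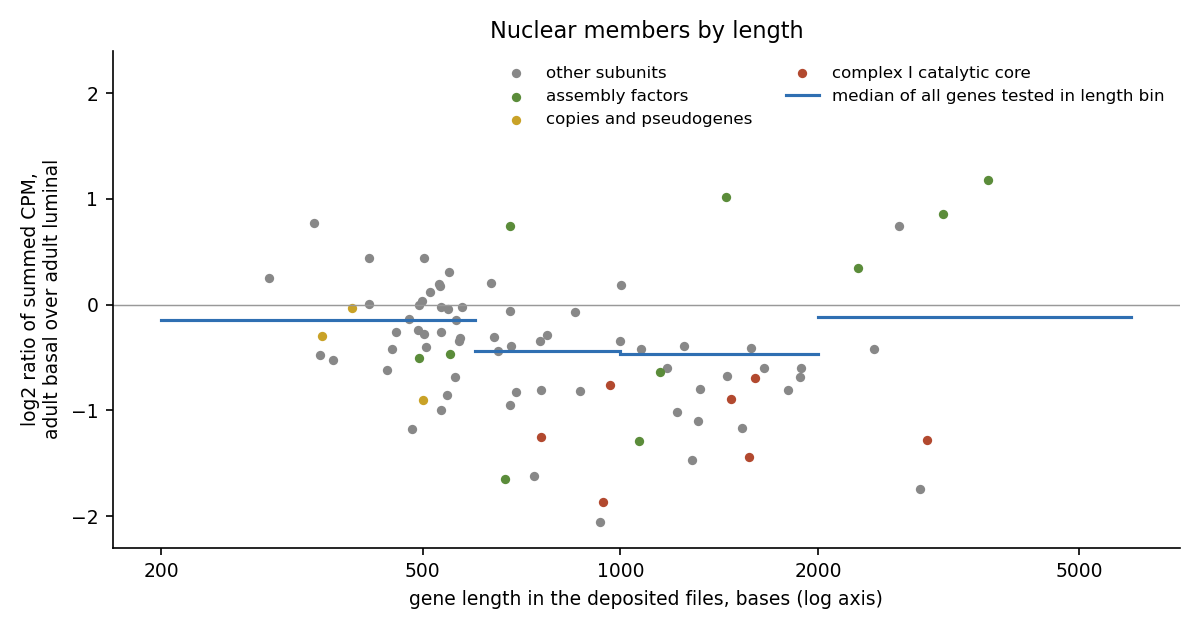
Log2 ratio of adult basal over adult luminal cells against gene length (log axis, bases) for the compared nuclear members, where points are genes coloured by kind and the horizontal lines are the median of all compared genes in each length bin. Members from 1000 to 2000 bases had a median of −0.69, against −0.47 for all genes of that length.

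Between pregnancy and the adult groups, the members followed the scaling. Pregnancy over adult basal cells, 5 of the 84 members were at least 2-fold lower and 1 higher, where 26.2% and 14.7% of all genes were. The median log2 ratio was −0.37 against −0.45 over all genes. Without milk and mitochondrial genes in the totals, a setting added after seeing the data, it was 0.07, so no direction of the set as a whole is given for this pair. Pregnancy over adult luminal cells, 27 members were at least 2-fold lower and 0 higher, against 34.3% and 11.6% of all genes, and the median was −0.78 against −0.62. The median was −0.37 without milk and mitochondrial genes and −0.21 with TMM, and the number of members at least 2-fold lower was 10 and 7 under these settings, against 20.5% and 16.4% of all genes. It was 14 in the lower and 42 in the higher span of title numbers, against 24.3% and 48.6% of all genes. Of the complexes, complex I was furthest down in that pair, at −1.03, with 17 of its 33 subunits at least 2-fold lower, 6 of them in the core of 7. That count is for totals of all reads. It cannot hold without milk and mitochondrial genes or with TMM, where the whole set had 10 and 7 lower members. Ndufaf3 (66706), an assembly factor of complex I, was at 40.3 CPM in adult luminal and 9.93 CPM in pregnancy cells and had the lowest ratio, −2.02. The comparisons with pregnancy share the adult groups, so they are not independent of each other.

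Besides Sdha, the members highest in pregnancy against adult basal cells were Cox5a (12858) of complex IV, at 104 against 68.0 CPM, Ndufc2 (68197) of complex I, at 210 against 144 CPM, Atp5d, at 36.0 against 26.4 CPM, and Cox4i1, at 698 against 539 CPM. The medians by cell of Cox5a were 9.08, 78.2 and 70.7 CPM and those of Ndufc2 62.5, 149 and 160 CPM in adult basal, adult luminal and pregnancy cells. In both genes the pregnancy median was near the luminal one. The lowest against adult basal cells were Ndufaf4, Sdhaf2 and Ndufa11, with log2 ratios of −1.67, −1.58 and −1.21, followed by Sdhaf3 (71238), an assembly factor of complex II, with −1.19. Atp5e (67126), the epsilon subunit of the F1 part of the ATP synthase, was at 187 CPM against 365 CPM, with medians by cell of 186 and 286 CPM. It was seen in 97 of 102 and 81 of 88 cells.

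Since the pregnancy group was not divided into basal and luminal cells before capture, its cells were divided by markers here. A cell was called basal-marked or luminal-marked where it showed at least 3 more markers of that lineage than of the other, a limit set after the values were seen, and neither otherwise. This gave 86 basal-marked adult basal cells, 39 luminal-marked adult luminal cells, and 38 basal-marked, 32 luminal-marked and 32 other cells in pregnancy, where 19 cells lay within 1 marker of the limit. Members were not among the markers. Outside milk and mitochondrial reads, the nuclear set had a median of 1.28% in basal-marked and 1.99% in luminal-marked pregnancy cells, with lowest and highest cells of 0.719% and 2.06% in the former and 0.926% and 2.52% in the latter. In adult cells the medians were 1.42% and 1.91%. The same order held in both spans of title numbers, with medians of 1.41% (19 cells) and 1.99% (13 cells) up to 55, and 1.22% (19) and 1.99% (19) above it. The 32 pregnancy cells in neither class lay between, at 1.63%. As a percent of all reads the gap was smaller, with medians of 1.01% in basal-marked and 1.27% in luminal-marked pregnancy cells. Across pregnancy cells, the nuclear share outside milk and mitochondrial reads had a Spearman correlation of 0.57 with the milk share. For the nuclear share of all reads it was 0.11. The mitochondrial set took 10.2% of summed reads (median 7.01%) in basal-marked and 6.30% (median 5.46%) in luminal-marked pregnancy cells, against 5.02% (median 4.60%) and 6.72% (median 5.61%) in the adult classes. Its share of all reads was therefore larger than in the adult class of the same markers for basal-marked but not for luminal-marked pregnancy cells. Milk reads are in this total, with medians of 13.7% in luminal-marked pregnancy and 0.513% in luminal-marked adult cells. They are left out of the base outside milk and mitochondrial reads. By span, luminal-marked pregnancy cells held 4.77% up to title number 55 and 7.15% above it, below and above the adult 6.72%. Basal-marked libraries had a median of 163222 reads in pregnancy and 420486 in adult cells. The parts of milk and depth were not tested.

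**Figure D4:**
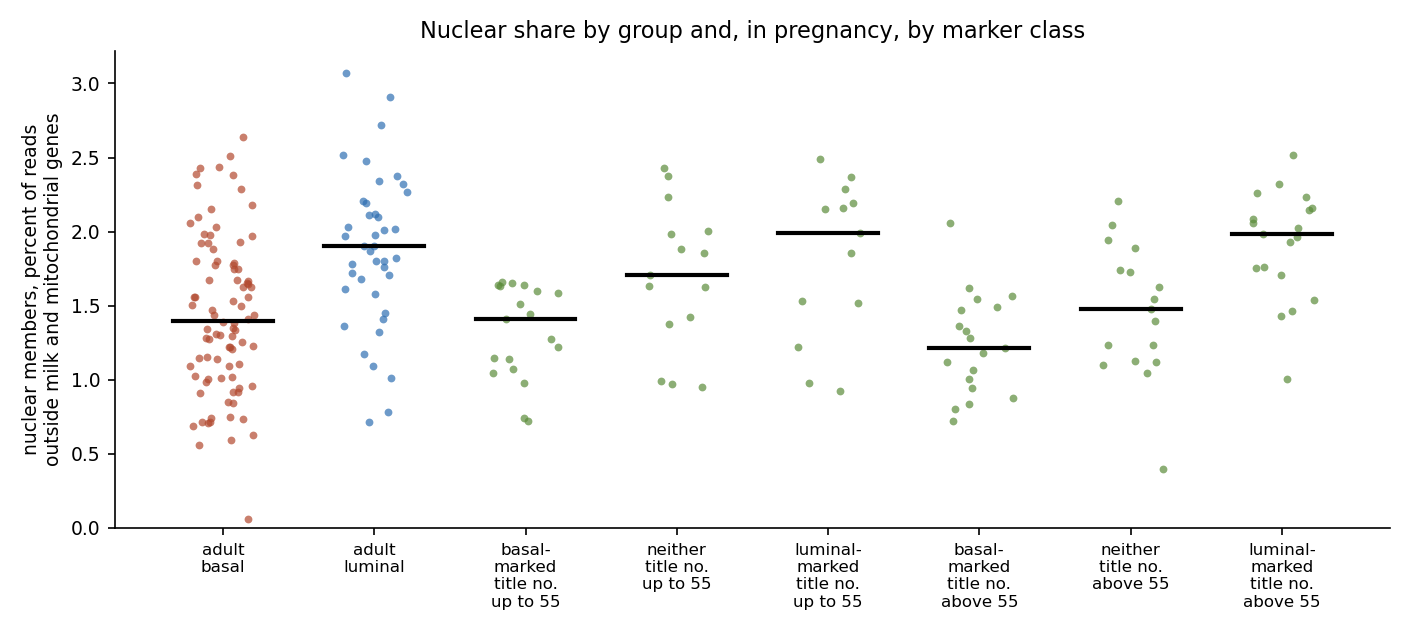
Nuclear set as a percent of reads outside milk and mitochondrial genes, for both adult groups whole and for pregnancy cells by marker class and span of title numbers, where each point is 1 cell and the bar is the median. Luminal-marked pregnancy cells had a median of 1.99% in both spans, and basal-marked cells 1.41% and 1.22%.

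Gene by gene, outside milk and mitochondrial reads, 75 of the 84 members were above 0 in luminal-marked over basal-marked pregnancy cells. Their median log2 ratio was 0.42. Over all genes with a ratio, 51.5% were above 0 and the median was 0.04. In the adult groups 67 members were above 0 with a median of 0.45, where 58.2% of all genes were and their median was 0.25. Within the spans the members' median was 0.37 with 66 above 0 up to number 55, and 0.57 with 71 above 0 beyond it. The core and accessory subunits of complex I had medians of 0.41 and 0.43 in pregnancy, and of 1.29 and 0.38 in the adult groups. By span these were 0.20 and 0.39 up to number 55, and 0.88 and 0.56 beyond it. Libraries of the 2 classes were not of the same depth, with a median of 163222 reads in basal-marked and 266309 in luminal-marked pregnancy cells, and the part of depth in the difference was not tested. Adult luminal cells were also split by markers of luminal progenitors and mature luminal cells. The nuclear set had a median of 1.33% of all reads in 6 progenitor-marked cells and 1.78% in 30 mature-marked cells, with ranges of 0.648% to 2.58% and 0.699% to 2.80% that overlapped almost entirely.

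The mitochondrial genes were unequal among themselves. On the scale of CPM per kilobase, CYTB (chrMT:14145-15288), the cytochrome b of complex III, was highest, at 13840 in adult basal, 18752 in adult luminal and 20414 in pregnancy cells. ND1 (chrMT:2751-3707) was at 11713, 9969 and 12730, and COX1 (chrMT:5328-6872), the catalytic subunit of complex IV, at 6225, 11764 and 14796. ND3 (chrMT:9459-9806) was lowest, at 289, 152 and 323. CYTB, ND1 and COX1 together make up most reads of the set, and they divided it differently by group. COX1 took 18.5% of the set's reads in adult basal, 27.3% in adult luminal and 28.8% in pregnancy cells, and its lowest, median and highest shares by cell were 2.20%, 18.0% and 34.8%, then 13.2%, 28.2% and 43.5%, then 10.4%, 25.9% and 39.8%. ND1 took 21.6%, 14.3% and 15.4%. CYTB took 30.5%, 32.2% and 29.5%. The pregnancy values differed by span of title numbers. The mitochondrial genes of complex IV, COX1 among them, held 1.79% of all reads up to number 55, where the whole set held 6.20%. Above it they held 3.61%, where the whole set held 8.98%.

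**Figure D5:**
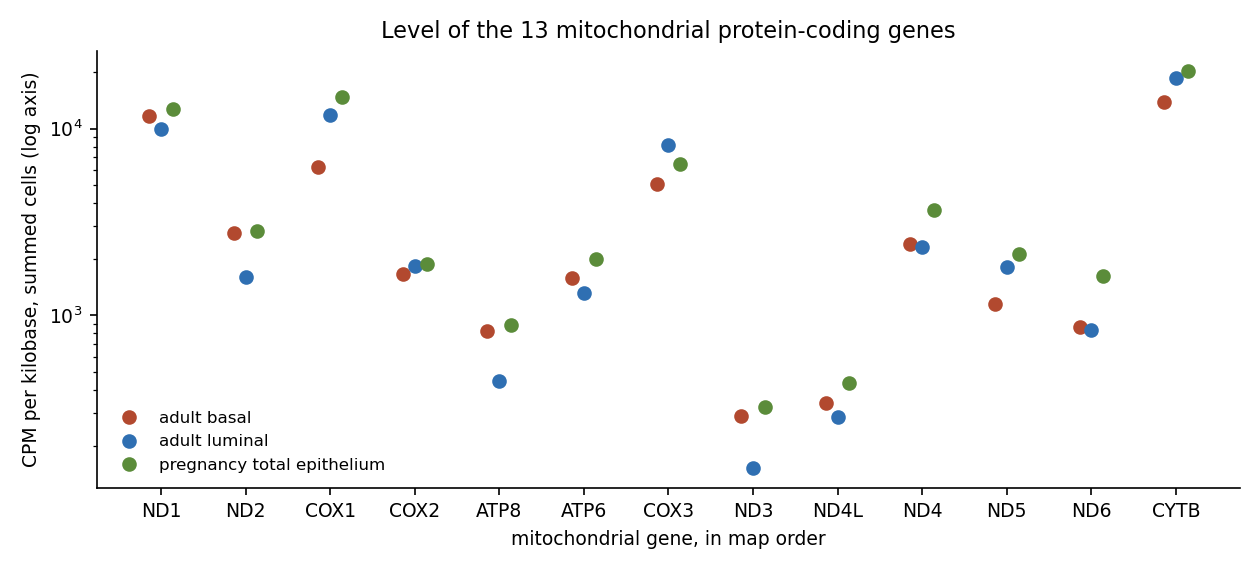
Level of each of the 13 mitochondrial protein-coding genes in CPM per kilobase (log axis), in the order of the chromosome, with 1 point per group for the summed cells. COX1 was at 6225, 11764 and 14796 in adult basal, adult luminal and pregnancy cells, and ND3 was the lowest gene in all 3 groups.

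Between the adult groups the 13 genes did not move together. The log2 ratio of adult basal over adult luminal was 0.92 for ND3, 0.90 for ATP8 and 0.79 for ND2, and it was −0.92 for COX1, −0.69 for COX3, −0.65 for ND5 and −0.44 for CYTB, with a median of 0.06. Pregnancy over adult basal cells, all 13 were above 0, with a median of 0.35 and 1.25 for COX1. Pregnancy over adult luminal cells, 12 of 13 were above 0, with a median of 0.60, 1.09 for ND3 and 1.01 for ATP8. These counts are for all pregnancy cells, and the spans differed. Up to title number 55 the mitochondrial genes of complexes III and IV held 1.76% and 1.79% of reads. Those shares were below the adult luminal 2.15% and 2.58%. Above number 55 they were 2.69% and 3.61%. Several levels of the 13 genes are uncertain as those of single genes. ATP8 and ATP6 overlap by 43 bases, ND4L and ND4 by 7, and ND5 overlaps ND6, on the other strand, by 14. Of the 50-base runs of COX2, COX3, ATP6, ND4L and ND3, 98.0% to 100% also occur in other annotated transcripts. So do 62.2% of those of ND4 and 51.1% of those of COX1. According to the study the reads were paired and longer than these runs, so a shared run need not make a read pair ambiguous. The strand and multi-mapping settings of the counting were not given in the sources used here. The part of such copies in the values was not tested.

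Where complex IV and V subunits come in tissue-specific forms, these forms held the smaller part of the reads of their family. Cox6a2 and Cox8b, forms of heart and muscle, had 0 reads in the used cells of every group. Cox4i2 had 0 reads in adult basal, 42 in adult luminal and 43 in pregnancy cells, beside 21537, 29351 and 19050 of Cox4i1. The 42 adult luminal reads lay in 1 cell, and the 43 pregnancy reads in 7. Cox7a1, another heart and muscle form, had 0 reads in adult basal cells, 286 reads in 12 adult luminal cells and 63 reads in 15 pregnancy cells. Beside it, Cox7a2 had 1048, 940 and 599 reads and Cox7a2l 3199, 3523 and 2157. Cox7a1 thus held 6.02% of the reads of these 3 genes in adult luminal and 2.23% in pregnancy cells. Most of that total, 74.2% and 76.5%, was Cox7a2l, which is counted among the assembly factors. Beside Cox7a2 alone, Cox7a1 had 286 against 940 reads in adult luminal and 63 against 599 in pregnancy cells. Against a floor of 3 reads over the group, its log2 ratio of adult basal over adult luminal cells was at most −7.08. No adult luminal cell showed more than 1 of 8 markers of brown fat and muscle, but the highest held 4915 CPM on them. At least 3 fibroblast markers were seen in 6 adult luminal cells, and at least 3 endothelial markers in 2. Whether reads of these forms came from other cell types was not tested. Cox6b2, a testis form, had 819 reads in 10 adult basal cells, which was 8.30% of the reads of Cox6b1 and Cox6b2 together, against 1.79% and 1.95% in adult luminal and pregnancy cells. Of the 3 genes for the ring of the ATP synthase, which encode the same mature protein, Atp5g3 took 93.8%, 90.8% and 93.6% of the reads. Of the nuclear members, Atp5l shares 84.8%, Atp5g1 56.2%, Ndufs3 39.7% and Cox5a 32.0% of its 50-base runs with other annotated transcripts, so their levels are less certain than those of unique genes.

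Nuclear respiratory factor 1 (NRF1), GABPA, which is of the ETS family, and YY1 are known regulators of nuclear respiratory genes, so the members' promoters were searched for their core motifs on both strands. A window of 300 bases from RefSeq (GRCm38.p6), 250 before the start and 50 after it, was at hand for 81 of the 104 nuclear members. The NRF1 core GCGCANGCG was in 29.6% of these members' promoters, against 7.03% of the 27025 genes with a window. The ETS core CCGGAAG was in 27.2% against 9.93%, and the YY1 core ATGGCGG in 16.0% against 4.69%. At least 1 of the 3 was in 58.0% against 18.5%. Among genes that reached 10 CPM the gaps were narrower. There the NRF1 core was in 27.1% of members and 16.6% of genes, the ETS core in 28.6% and 22.0%, the YY1 core in 18.6% and 10.4%, and at least 1 of them in 58.6% and 40.4%. A match in the letters is not a measured binding site. In adult basal, adult luminal and pregnancy cells the mRNA of NRF1 itself (Nrf1) was at 28.6, 18.0 and 8.83 CPM. That of GABPA (Gabpa) was at 57.0, 39.2 and 31.2 CPM and that of YY1 (Yy1) at 80.5, 62.8 and 34.0 CPM. An mRNA level does not measure the activity of a regulator, and the part of these regulators in the members' levels was not tested.

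The promoters of 4 members described above are shown 5′ to 3′ on the strand of the gene, with matches in capitals, because they hold each motif and differ in their levels: Sdha with 3 NRF1 cores, Ndufs3 with 2 ETS cores, Cox6a1, which was near equal in the adult groups, with overlapping and single NRF1 cores and an ETS core, and Ndufs7 with a YY1 core.
Sdha, chr13:74350191-74350490, minus strand: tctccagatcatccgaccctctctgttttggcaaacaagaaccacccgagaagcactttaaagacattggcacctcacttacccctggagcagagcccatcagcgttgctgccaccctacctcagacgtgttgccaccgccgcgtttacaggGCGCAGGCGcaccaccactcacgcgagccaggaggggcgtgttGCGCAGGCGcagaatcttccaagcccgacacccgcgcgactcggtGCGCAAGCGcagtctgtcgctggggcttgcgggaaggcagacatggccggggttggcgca
Ndufs3, chr2:90904672-90904971, minus strand: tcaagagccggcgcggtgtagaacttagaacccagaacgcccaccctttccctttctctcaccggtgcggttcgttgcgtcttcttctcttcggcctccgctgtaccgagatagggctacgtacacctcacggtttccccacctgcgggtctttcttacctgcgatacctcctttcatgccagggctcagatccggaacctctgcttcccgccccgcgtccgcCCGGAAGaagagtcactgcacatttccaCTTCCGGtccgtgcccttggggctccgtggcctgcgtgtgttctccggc
Cox6a1, chr5:115348909-115349208, minus strand: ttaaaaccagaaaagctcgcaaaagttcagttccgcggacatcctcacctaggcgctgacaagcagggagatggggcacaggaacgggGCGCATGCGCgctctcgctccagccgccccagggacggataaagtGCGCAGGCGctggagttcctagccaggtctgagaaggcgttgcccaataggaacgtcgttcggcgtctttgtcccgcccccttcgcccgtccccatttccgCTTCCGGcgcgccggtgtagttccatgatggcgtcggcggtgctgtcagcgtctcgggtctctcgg
Ndufs7, chr10:80249199-80249498, plus strand: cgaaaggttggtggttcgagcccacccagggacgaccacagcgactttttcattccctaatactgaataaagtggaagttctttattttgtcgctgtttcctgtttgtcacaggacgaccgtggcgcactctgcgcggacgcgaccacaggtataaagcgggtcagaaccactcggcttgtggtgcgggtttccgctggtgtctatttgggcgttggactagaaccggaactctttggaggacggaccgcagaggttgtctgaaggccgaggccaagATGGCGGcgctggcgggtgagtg
Genes with low and with even ratios both hold matches, and no order of levels was read from them.

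Other mitochondrial and energy genes were counted from lists fixed for the purpose, to be read beside the 28.6% of all genes at least 2-fold lower and 18.6% higher in adult basal than in adult luminal cells. Adult basal over adult luminal, 29 of 72 compared genes of the mitochondrial ribosome, which translates the mitochondrial members, were at least 2-fold lower and 2 higher, with a median log2 ratio of −0.81, further down than the members. Of 12 electron carriers and antioxidants, 6 were lower and 0 higher with a median of −1.07, among them Prdx3, a mitochondrial peroxidase, at 45.1 and 360 CPM, and Etfb, which feeds electrons from fat oxidation to ubiquinone, at 107 and 351 CPM. Of 19 citric acid cycle genes, 6 were lower and 0 higher, with a median of −0.31, a share of lower genes near that of all genes. Of 13 genes of outer membrane transport and import, 2 were lower and 1 higher, with a median of −0.25. Of 16 glycolysis genes, 3 were lower and 5 higher with a median of 0.11, with Pfkp, a phosphofructokinase, at 211 and 24.2 CPM and Aldoc, an aldolase, at 9.21 and 297 CPM. Gapdh, also on the glycolysis list, was at 3.70 and 4.43 CPM and was not compared. The reason for its low count was not tested. Of 14 regulators of mitochondrial transcription and replication, 5 were lower and 3 higher with a median of −0.41. Tfam, which packages mitochondrial DNA and takes part in its transcription, was at 27.6 and 59.9 CPM. In pregnancy Tfam was at 13.4 CPM.

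Pregnancy over adult basal, where 26.2% of all genes were lower and 14.7% higher, the lists had medians of −0.37 for the mitochondrial ribosome (11 lower, 6 higher), 0.07 for electron carriers and antioxidants (0 and 1), −0.01 for the citric acid cycle (1 and 0), −0.57 for outer membrane and import (2 and 0), −0.51 for glycolysis (4 and 2) and −1.09 for the regulators (8 and 0). Pregnancy over adult luminal, the medians were −1.0 (36 and 1), −0.92 (6 and 0), −0.67 (5 and 0), −0.49 (2 and 0), −0.12 (2 and 2) and −0.95 (7 and 0) in the same order, with −0.62 over all genes, of which 34.3% were lower and 11.6% higher.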

How the data were processed

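Single-cell RNA-seq libraries of mouse mammary epithelium (Fluidigm C1, Nextera XT, paired reads) were deposited as 1 table of gene-level read counts per cell. The authors aligned reads to mm10 with Subread 1.4.6 and counted them with featureCounts over the RefSeq annotation built into Rsubread, and the deposited counts are raw and not normalised, with no molecular identifiers. Multi-mapping and strand settings were not given in the sources used here. Of 27179 Entrez identifiers, 25275 matched a symbol in RefSeq, and the 1904 others held 1.20% of reads.

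Groups were taken from the sample titles. Cells under 50000 reads were left out (47 of 278). Totals included mitochondrial reads. According to the study's methods, captured cells were viewed on the chip, and no doublet caller was run here. No 2 libraries were identical. Reads were summed over the cells of a group and given as CPM. Log2 ratios carried exact 95% conditional binomial intervals, shares Clopper-Pearson intervals, and a sum of 0 the floor of 3 reads over the group. All of these cover counting error only. For shares of cells, each cell was thinned at random to 50000 reads. Genes with a mean of at least 10 CPM over the 3 groups were compared, with a limit of 2-fold. As each group is 1 sample, no test was made. The calculation of ratios and intervals was tested on simulated data.

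Named genes were the 6 highest and 6 lowest ratios per comparison, the 2 highest per kilobase in each complex, the mitochondrial genes and pairs of isoforms. Ndufs7, Prdx3, Etfb, Pfkp, Aldoc, Gapdh, Tfam, Nrf1, Gabpa and Yy1 were named after their values were seen. Members, lists and markers were chosen with earlier results of these data known. Marker limits, the grouping of core subunits and the division at title number 55 were set after values were seen. Alternatives covered the cells kept, totals, weights, filters, TMM and members. Python 3.11.15 with numpy 2.4.6, pandas 2.3.3, scipy 1.17.1 and matplotlib 3.10.9, and R 4.3.3 with edgeR 4.0.16 for TMM factors, were used. Promoter windows came from RefSeq (GRCm38.p6).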

Additional observations from a re-analysis of the deposited data

Results flagged for a closer look

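The 2 mitochondrial rRNA genes are not members and entered no comparison. Reads on them were well above a count of 0 in every group, and they took 2.092% of reads in adult basal, 1.70% in adult luminal and 4.365% in pregnancy cells. Across cells their share and that of the mitochondrial set had a Spearman correlation of 0.69, 0.69 and 0.75, and both are parts of the same total.

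The libraries under 50000 reads, which entered no comparison, held much larger shares of the mitochondrial set in 2 groups: 35.99% of reads summed over 24 adult basal libraries and 39.38% over 21 pregnancy libraries, against 4.07% over 2 adult luminal libraries. Their medians were 26.2%, 44.5% and 3.41%, and the used cells had medians of 4.66%, 5.99% and 5.61% in adult basal, pregnancy and adult luminal cells.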

How the results depend on the processing

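Values are given for adult basal, adult luminal and pregnancy cells in that order unless said otherwise. With the study's minimums on reads and genes the nuclear share was 1.78% in adult luminal and 1.08% in pregnancy cells, and the mitochondrial share 5.01%, 6.09% and 7.43%. With at least 100000 reads the nuclear share was 1.33% in adult basal and 1.08% in pregnancy cells, and the mitochondrial share 5.01% and 7.44%. Without the cell with most reads of the set the nuclear share was 1.31% and 1.72% in the adult groups, and the mitochondrial share 5.12%, 6.40% and 7.79%. With every cell at the same weight the shares were 1.32%, 1.69% and 1.11% nuclear and 6.49%, 7.42% and 9.58% mitochondrial, and with thinned cells 1.32%, 1.69% and 1.12%, and 6.49%, 7.40% and 9.58%. Without milk genes in the totals the nuclear share was 1.77% in adult luminal and 1.33% in pregnancy cells and the mitochondrial share 6.73% and 9.84%. Without mitochondrial genes the nuclear share was 1.43%, 1.91% and 1.22%. Subunits alone held 1.27%, 1.68% and 1.04%. Pregnancy cells up to title number 55 had 1.27% nuclear and 6.20% mitochondrial reads, and those above 0.953% and 8.98%.

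Settings chosen after seeing the data gave nuclear shares of 1.43%, 1.93% and 1.57% without milk and mitochondrial genes, 1.77% in adult luminal cells and mitochondrial shares of 4.90%, 6.36% and 7.71% in cells with at least 1000 genes, and 1.34%, 1.80% and 1.05% nuclear and 5.22%, 7.04% and 8.68% mitochondrial without cells holding markers of another type.

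The median log2 ratio of members in adult basal over adult luminal cells stayed between −0.45 and −0.39 except with TMM (−0.15). That of pregnancy over adult basal was −0.25 with equal weights, −0.29 without mitochondrial genes, −0.055 without milk genes, −0.064 with TMM, −0.077 and −0.54 in the lower and upper span of title numbers, and it changed sign to 0.074 without milk and mitochondrial genes, by the construction of the totals. That of pregnancy over adult luminal was −0.67 with equal weights, −0.49 without milk genes, −0.37 without milk and mitochondrial genes, −0.21 with TMM, and −0.53 and −1.0 in the spans.

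Of members past 2-fold, adult basal over adult luminal cells had 1 higher with the study's minimums, 1 without milk and mitochondrial genes, and 0 among subunits, 6 higher and 9 lower with TMM, 6 higher at a mean of 1 CPM or with no filter, and 6 and 34 at 1.5-fold. Pregnancy over adult basal cells had 2 lower without milk genes, 2 higher and 2 lower without milk and mitochondrial genes, 1 lower among subunits, 2 higher and 3 lower up to number 55 and 0 and 17 above it, 4 and 10 at 1 CPM, 6 and 10 with no filter, 2 lower with TMM, and 2 and 26 at 1.5-fold. Pregnancy over adult luminal cells had 12 lower without milk genes, 10 without milk and mitochondrial genes, 1 higher and 14 lower up to number 55, 42 lower above it, 2 higher with no filter, 7 lower with TMM and 58 at 1.5-fold.

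Without the cell with most reads, 5 ratios of named genes changed sign: Ndufaf1 to −7.71 (adult basal over adult luminal) and 8.22 (pregnancy over adult basal), Atp5g2 to −0.75 and 0.62, and Ndufa4l2 to 4.73 (pregnancy over adult luminal). Of Ndufaf1 1 adult basal read and of Ndufa4l2 1 adult luminal read were left, so these ratios have counting intervals of −13.02 to −5.21, 5.73 to 13.5 and 2.12 to 10.1. The intervals of Atp5g2, −1.56 to 0.05 and −0.21 to 1.45, span 0. No paired analysis was possible because no result comes from a test and the cells share no pairing. Depth limits genes with few reads: no ratio is given where both groups held 3 reads or fewer, a group at 0 gives a bound, and 1 to 3 reads give a wide interval.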
